A study of Mus musculus with 4 samples.

Results

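The genes described here were 9 members of the cholesterol efflux and liver X receptor (LXR) pathway, followed across the cell classes of the mouse aorta. They were chosen by name, as the ABC sterol exporters Abca1 and Abcg1, the LXR genes Nr1h3 and Nr1h2, and the targets Mylip, Lpcat3, Srebf1, Scd2 and Pltp. All 9 were present among the 32285 features of the matrices. Each of the 4 groups was 1 library of cells dissociated from aortas and counted with 10x Genomics 3' chemistry, in which a unique molecular identifier (UMI) marks 1 captured transcript. A WT library and a LysM-DKO library came from mice on normal diet. A WT/ApoE-/- library and a LysM-DKO/ApoE-/- library came from mice on western diet. Apolipoprotein E was thus lost in both western diet groups and in neither normal diet group. The abbreviation LysM-DKO is not expanded in the labels, and the title of the study concerns epsins and ABCG1-mediated cholesterol efflux in macrophages. LysM is the Lyz2 gene, whose promoter is commonly used to drive Cre in macrophages, neutrophils and other myeloid cells. With 1 library per group no difference between groups had a replicate check, and the 95% intervals given here cover counting error only. The number and age of the animals behind each library were not given in the sources used here.

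Cells that take up modified lipoproteins cannot break down the sterol ring, so excess cholesterol is either stored as ester droplets or exported. Abca1 moves cholesterol and phospholipid to lipid-poor apolipoprotein A-I, and Abcg1 moves sterol toward mature high-density lipoprotein particles. Oxysterols made from the excess sterol activate LXR alpha (Nr1h3) and LXR beta (Nr1h2), which pair with retinoid X receptors and turn on both exporters, the ubiquitin ligase Mylip, the phospholipid remodelling enzyme Lpcat3, the lipogenic regulator Srebf1, the desaturase Scd2 and the phospholipid transfer protein Pltp. In the plaque this programme is best known from lipid-laden foam cells.

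LXR binds paired hexamer repeats separated by a short spacer, and the exporter Abca1 and the regulator Srebf1 are the textbook examples of genes with such an element close to a start site. Their upstream sequences are shown because these were the only members in which the element searched for was found. RefSeq promoters on GRCm38.p6 were matched for 7 of the 9 members, which gave 10 promoters, and none for Abcg1 and Scd2. The search used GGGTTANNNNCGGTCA, the form present at Srebf1, and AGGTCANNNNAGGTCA, on both strands of windows from 250 bases before to 50 bases after each start. The first form was chosen after these sequences were seen. The 2 lines below give the 250 bases before the start at chr4:53159896-53160145 (minus strand) for Abca1 and at chr11:60210472-60210721 (minus strand) for Srebf1, 5' to 3' in the sense of the gene, with matches of at most 2 mismatches in capitals.
Abca1: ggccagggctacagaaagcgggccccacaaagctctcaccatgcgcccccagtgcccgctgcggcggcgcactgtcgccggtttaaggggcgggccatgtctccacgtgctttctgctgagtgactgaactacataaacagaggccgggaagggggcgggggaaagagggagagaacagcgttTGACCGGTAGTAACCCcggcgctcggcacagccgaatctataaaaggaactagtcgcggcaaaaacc
Srebf1 promoter 3: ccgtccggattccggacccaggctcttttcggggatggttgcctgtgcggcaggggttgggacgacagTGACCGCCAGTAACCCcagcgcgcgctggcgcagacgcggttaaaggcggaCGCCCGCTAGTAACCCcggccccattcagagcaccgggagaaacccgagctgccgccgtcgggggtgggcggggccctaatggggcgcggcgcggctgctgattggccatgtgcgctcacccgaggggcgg
In Abca1 the capitals span positions -67 to -52 and read as an exact match on the opposite strand. In Srebf1 the first match spans -182 to -167 with 0 mismatches, and the second spans -131 to -116 with 2 mismatches. Exact matches occurred in 3 of 32851 promoters (0.00913%), and matches of at most 2 mismatches in 327 (0.995%). The second form was found exactly in 5 promoters (0.0152%) and with at most 2 mismatches in 993 (3.02%), and no member's window held it. These matches describe letters in the windows and show no binding.

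Deposited barcodes numbered 13831, 15826, 29724 and 11414 for WT normal diet, LysM-DKO normal diet, WT/ApoE-/- western diet and LysM-DKO/ApoE-/- western diet, an order kept for every set of 4 values below. Of these, 7758, 8230, 13744 and 8133 passed a minimum of 1000 UMIs and a limit of 10% mitochondrial UMIs, with medians of 4167, 3404, 2103 and 6761 UMIs. Barcodes were put into classes by marker UMIs, and the macrophage class (at least 5 UMIs of C1qa, C1qb and C1qc) held 92, 208, 939 and 135 barcodes. Of these, 60.9%, 63.9%, 43.5% and 37% also matched another class of the rule. Those matching 1 class only numbered 36, 75, 531 and 85. Macrophages with at least 2 UMIs of Gpnmb, Trem2 and Mmp12, genes of lipid-associated macrophages, are called foamy here, and there were 13, 35, 503 and 66 of them. This is a range of a score and not a separate type, since 25, 53, 333 and 41 macrophages lay at 1 to 3 UMIs of those genes. All 7 macrophage markers fixed for the check were higher in macrophages than in the other classes in every library. The 6 foamy markers were compared between foamy and other macrophages only. All 6 were higher in foamy macrophages in each western diet library. On normal diet 5 were in WT (not Plin2) and 4 in LysM-DKO (not Spp1 and Cd9), and there the name rests on the score alone. Pairs of libraries shared 9 to 41 kept barcodes, at most 0.528% of the smaller library. The deletion was not read directly by 3' counts: Epn1 gave 81.7, 54.5, 52.4 and 42.7 CPM (counts scaled to 1000000 UMIs of the class) in macrophages, and Epn2 gave 35.6, 33.6, 33.2 and 15.7. Lyz2, the locus that LysM names, was at 3696, 977, 4126 and 798 CPM there. Apoe was at 7012, 5435, 8.44 and 8.55 CPM, and Xist at 1707, 1215, 0.511 and 0 CPM (0 UMIs, which allow up to 4.27 CPM), so diet cannot be told apart from ApoE genotype, sex of the animals or software version.

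Abca1 (ENSMUSG00000015243, chromosome 4, 53030787 to 53159895, minus strand, GRCm38) was most abundant in macrophages in each of the 4 libraries. Its level over all macrophages was 335 CPM (285 to 391), 376 (341 to 414), 645 (620 to 670) and 594 (539 to 654). The western diet pair was thus above the normal diet pair, with intervals apart. Among the other classes with at least 50 barcodes it ranged from 20.2 CPM in T cells of WT mice on normal diet to 237 CPM in B cells of WT/ApoE-/- mice on western diet. Smooth muscle, the most numerous class, gave 37.6, 34.5, 77 and 29.3 CPM. Fibroblasts gave 69.9, 80.2, 178 and 124 CPM, and endothelial cells 63.2, 75, 147 and 80.8 CPM. In all 3 wall classes the WT/ApoE-/- western diet library had the highest value.

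Abcg1 (ENSMUSG00000024030, chromosome 17, 31057675 to 31117988, plus strand) followed another order. Over all macrophages its level was 25.1 CPM (13 to 43.9), 42.7 (31.4 to 56.8), 329 (312 to 348) and 259 (223 to 300). On normal diet the highest level among classes with at least 50 barcodes was in B cells, at 48.7 CPM in WT and 52.7 CPM in LysM-DKO, while the 13 and 35 foamy macrophages gave 62.4 and 66 CPM. Only 12 UMIs of Abcg1 were counted in the 92 macrophages of the WT normal diet library, and in the LysM-DKO library the intervals of B cells, T cells and macrophages that were not foamy overlapped. On western diet the foamy macrophages led, at 454 CPM in WT/ApoE-/- and 369 CPM in LysM-DKO/ApoE-/-. The wall classes were low for Abcg1, with smooth muscle at 3.93, 6.58, 14.1 and 1.97 CPM. The plot of levels by class shows both exporters with the other members.

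**Figure D1:**
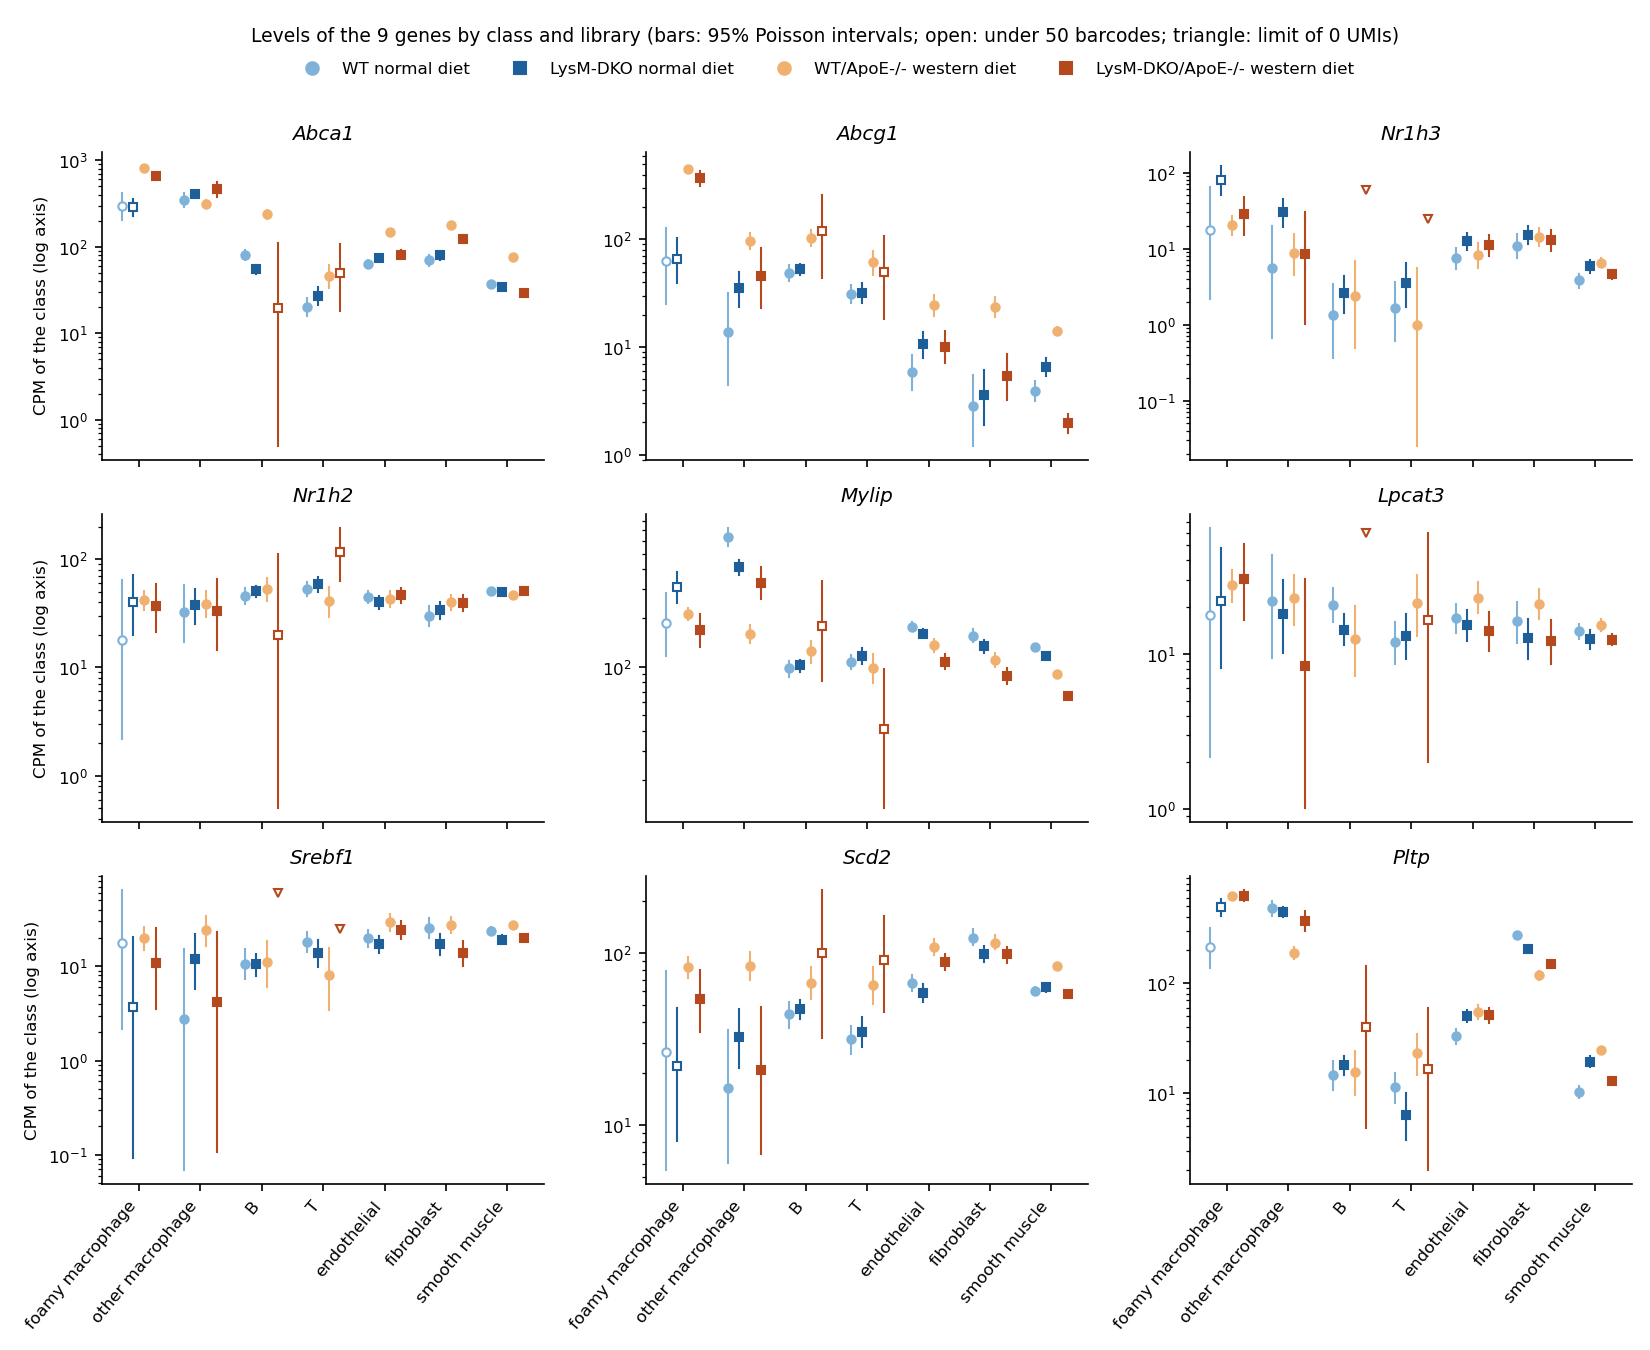
Level of each of the 9 genes (CPM of the class total, log axis) in 7 cell classes and 4 libraries, with 95% Poisson intervals as bars, open symbols for classes under 50 barcodes and triangles for the limit that 0 UMIs allow. Abca1, Mylip and Pltp are highest in macrophage classes in every library, and among classes with at least 50 barcodes Nr1h2 spans at most 1.77-fold within a library and Scd2 is highest in fibroblasts.

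The nuclear receptors differed from each other in their spread over classes. Nr1h3 (ENSMUSG00000002108, chromosome 2, 91184061 to 91202834, minus strand) encodes LXR alpha, and it overlaps Gm13783 on the same strand, so its UMIs are uncertain in part. In macrophages it was at 8.38, 42.7, 16.4 and 21.4 CPM, from 4, 47, 64 and 15 UMIs. The LysM-DKO normal diet library stood highest. Fibroblasts kept a narrower range of 10.9 to 15.3 CPM over the libraries, and smooth muscle 3.8 to 6.49 CPM. Nr1h2 (ENSMUSG00000060601, chromosome 7, 44549616 to 44553951, minus strand), which encodes LXR beta, was at 29.3, 38.2, 40.7 and 35.6 CPM in macrophages. The highest class exceeded the lowest by 1.35-fold to 1.77-fold within a library among classes with at least 50 barcodes, the smallest range over classes of the 9 genes in 3 of the 4 libraries.

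Among the targets, Pltp (ENSMUSG00000017754, chromosome 2, 164839518 to 164857711, minus strand, overlapped by Ctsa on the other strand) was at 417, 458, 470 and 539 CPM in macrophages. It was next highest in fibroblasts, at 118 to 272 CPM over the libraries, and then in endothelial cells, at 32.9 to 55.2 CPM, with intervals apart at both steps. Mylip (ENSMUSG00000038175, chromosome 13, 45389742 to 45412022, plus strand), which encodes an E3 ubiquitin ligase, was at 528, 388, 193 and 224 CPM in macrophages. Mylip was lower in the western diet pair, the opposite order to the exporters. This was not particular to macrophages. In endothelial cells Mylip was at 176, 160, 136 and 107 CPM, and in fibroblasts at 155, 134, 110 and 87.9 CPM. Smooth muscle gave 133, 116, 89.7 and 65.4 CPM, and T cells 107, 117, 97.4 and 41.4 CPM. B cells went the other way, at 97.4, 102, 125 and 179 CPM, the last from 14 barcodes. Scd2 (ENSMUSG00000025203, chromosome 19, 44293674 to 44306864, plus strand), which makes monounsaturated fatty acids, had its highest level among the named classes with at least 50 barcodes in fibroblasts, at 98.1 to 123 CPM, with intervals that overlapped those of endothelial cells on western diet. In macrophages it was at 18.8, 30, 83.4 and 42.7 CPM. Srebf1 (ENSMUSG00000020538, chromosome 11, 60199089 to 60222581, minus strand, overlapped by Rai1 on the other strand) was at 6.28, 9.99, 21.5 and 8.55 CPM in macrophages, from 3, 11, 84 and 6 UMIs. Lpcat3 (ENSMUSG00000004270, chromosome 6, 124663027 to 124704418, plus strand, overlapped by Emg1 on the other strand), which adds polyunsaturated chains to phospholipids, was at 20.9, 19.1, 25.8 and 22.8 CPM there. The libraries did not separate for Lpcat3 within counting error.

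The first comparison set LysM-DKO against WT within each diet, for macrophages, the cells in which the LysM promoter is active. On normal diet the counting intervals of both exporters included 0, a call that Abca1 lost under 3 alternatives. The ratio LysM-DKO over WT, given in log2 units of CPM with 0.5 UMIs added to each count, was 0.16 (-0.10 to 0.44) for Abca1 and 0.72 (-0.17 to 1.81) for Abcg1. Abca1 was at 0.77 (0.31 to 1.26) in barcodes matching 1 class, 0.46 (0.11 to 0.84) with the class rule at 1000 UMIs and 0.34 (0.05 to 0.64) with at least 10 C1q UMIs. Nr1h3 was higher in LysM-DKO by 2.19 (0.90 to 4.28), from 47 against 4 UMIs, and was higher both in foamy macrophages (1.89, 0.15 to 5.31) and in the rest (2.17, 0.46 to 5.59). Mylip was lower at -0.45 (-0.67 to -0.21), a direction that turned to 0.32 when only barcodes matching 1 class were counted. Of the 8 members with at least 20 UMIs over both sums, 1 was at least 2-fold higher and 0 were lower, beside 6.55% and 2.39% of all genes with as many UMIs. The haemoglobin gene Hbb-bs moved with this contrast, at 107 CPM in WT and 2151 CPM in LysM-DKO macrophages. In macrophages that were not foamy it was at 118 and 2821 CPM, and in foamy ones at 71.3 and 117 CPM. The median barcode that was not foamy held 227 CPM of the erythroid markers in WT and 387 CPM in LysM-DKO. The part of Hbb-bs in these ratios was not tested.

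On western diet both exporters were lower in the foamy macrophages of the LysM-DKO/ApoE-/- library than in those of the WT/ApoE-/- library. Abca1 was at 663 against 822 CPM there, a log2 ratio of -0.31 (-0.49 to -0.14), and Abcg1 at 369 against 454 CPM, a ratio of -0.30 (-0.54 to -0.07). The 6 foamy markers outside the class rule differed more between the same barcodes. Their medians were 5622 CPM in LysM-DKO/ApoE-/- and 18081 CPM in WT/ApoE-/-. Their part in the exporter ratios was not tested. In each group of macrophages sorted by Gpnmb, Trem2 and Mmp12 UMIs (below), the intervals of the 2 libraries overlapped for both exporters. At 10 or more such UMIs Abca1 was at 1074 CPM (876 to 1304) in LysM-DKO/ApoE-/- and 1227 CPM (1139 to 1320) in WT/ApoE-/-. Abcg1 was at 642 CPM (491 to 825) and 690 CPM (624 to 760) in the same order. The values of LysM-DKO/ApoE-/- were lower in each group, except Abca1 at 0 such UMIs. Over all macrophages Abcg1 was at -0.34 (-0.58 to -0.12) and Abca1 at -0.12 (-0.27 to 0.03). The ratio of Abca1 over all macrophages became 0.08 when each barcode had equal weight. The alternatives that follow are also for all macrophages, and those of the foamy ratios are not given one by one. Its interval lay below 0 in barcodes matching 1 class (-0.41, -0.61 to -0.22) and with at least 10 C1q UMIs (-0.35, -0.51 to -0.20). It also did at a limit of 5% mitochondrial UMIs (-0.31, -0.50 to -0.14). The same held with the class rule at 1000 UMIs (-0.26, -0.43 to -0.11) and at 2000 UMIs per barcode (-0.20, -0.35 to -0.05). It included 0 at 500 UMIs per barcode, at 20% mitochondrial UMIs, without doublets and with median-ratio scaling. Scd2 was lower at -0.94 (-1.55 to -0.42) and Srebf1 at -1.22 (-2.82 to -0.15), the latter from 6 against 84 UMIs. Pltp was higher at 0.20 (0.03 to 0.36), which turned to -0.14 at a limit of 5% mitochondrial UMIs, -0.08 with at least 10 C1q UMIs and -0.01 with the class rule applied at 1000 UMIs. Nr1h3, Nr1h2, Mylip and Lpcat3 had intervals that included 0. Of 9 members, 0 were at least 2-fold higher and 1 was lower, beside 4.1% and 9.1% of all genes. In foamy macrophages 0 of 9 passed 2-fold in either direction, beside 3.91% higher and 7.72% lower.

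Macrophages that were not foamy gave larger ratios on western diet. Abca1 was at 461 CPM in LysM-DKO/ApoE-/- and 314 CPM in WT/ApoE-/-, a ratio of 0.56 (0.24 to 0.86). Mylip was at 331 against 160 CPM (1.06, 0.66 to 1.43) and Pltp at 369 against 187 CPM (0.99, 0.62 to 1.34). Abcg1 was at 46.1 against 96.7 CPM, a ratio of -1.01 (-2.11 to -0.18) from 11 against 132 UMIs. Of 8 members, 1 was at least 2-fold higher and 4 were lower, where 8.78% and 15.8% of all genes were. Of the 8 intervals, only 2 lay below 0. Besides Abcg1, the lower members were Scd2, Lpcat3 and Srebf1, at 21, 8.39 and 4.19 CPM in LysM-DKO/ApoE-/-. They were found in only 5, 2 and 1 of the 69 barcodes there, so these ratios rest on very few UMIs. The ratio of Abca1 turned to -0.15 for barcodes matching 1 class and to -0.17 with the class rule at 1000 UMIs. These barcodes also differed in smooth muscle RNA: the median barcode held 10762 CPM of the 6 smooth muscle markers in WT/ApoE-/- and 1679 CPM in LysM-DKO/ApoE-/-. The 7 macrophage markers were at a median of 1058 CPM (2 UMIs) in WT/ApoE-/- and 4253 CPM (12 UMIs) in LysM-DKO/ApoE-/-, the direction of Abca1, Mylip and Pltp. The part of either in the ratios was not tested.

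**Figure D2:**
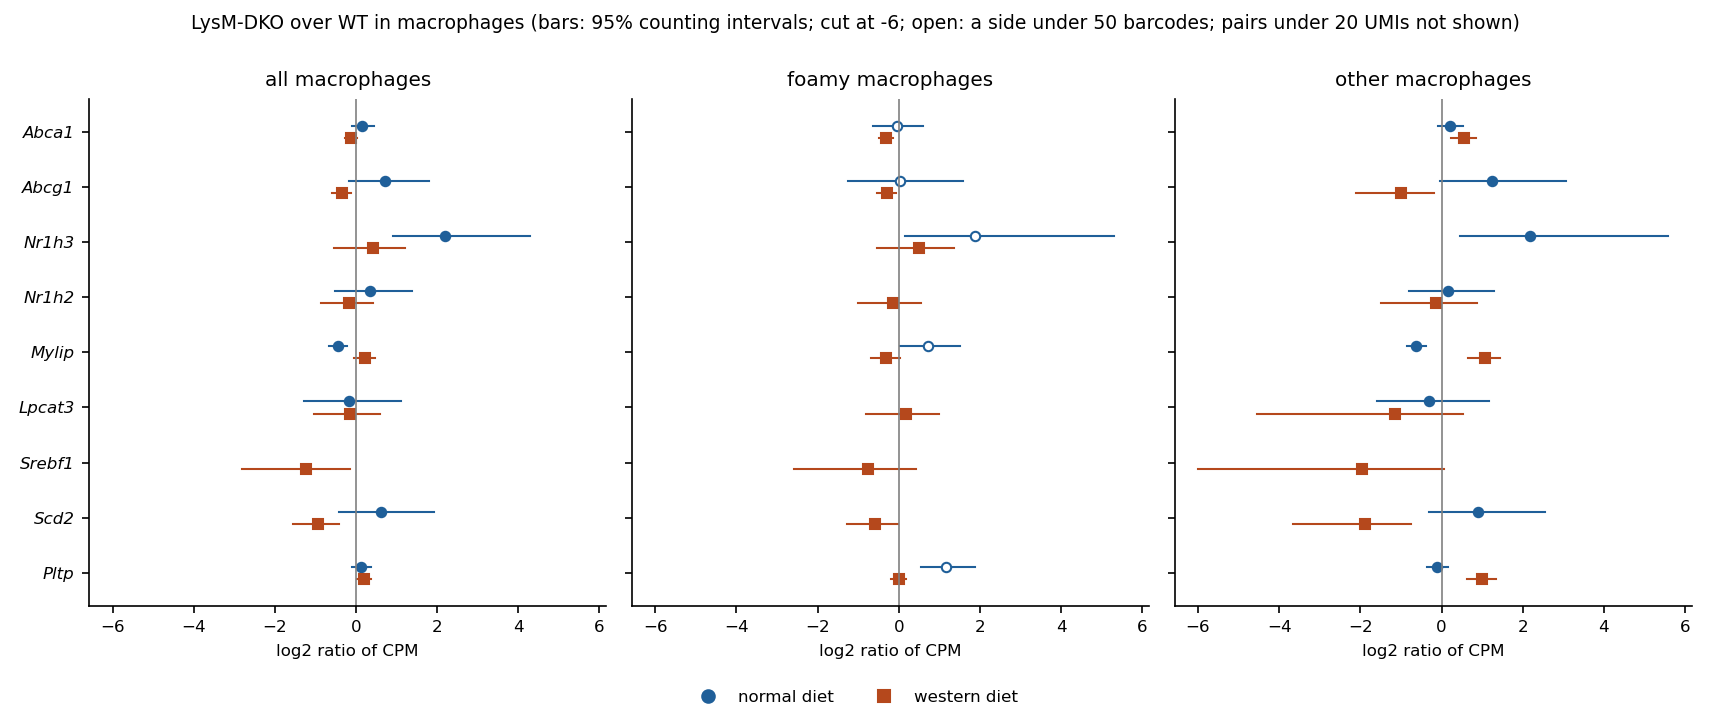
Log2 ratio of LysM-DKO over WT for the 9 genes in all, foamy and other macrophages on each diet, with 95% counting intervals as bars and open symbols where a side has under 50 barcodes. On normal diet the intervals of both exporters include 0 in all 3 macrophage sets and Nr1h3 lies above 0, and on western diet Abcg1 and Scd2 lie below 0 in all 3 macrophage sets.

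The second comparison set western against normal diet within a genotype, and it joins diet with the ApoE deletion. Each library serves in both the genotype and the diet comparison, so the ratios are not independent of those given above. Over all macrophages of WT mice, Abcg1 was higher on western diet by 3.65 (2.90 to 4.67) and Abca1 by 0.94 (0.71 to 1.18). The same ratios in LysM-DKO mice were 2.59 (2.13 to 3.1) and 0.66 (0.46 to 0.86). The median of all genes was itself shifted, by 0.25 among WT and 0.10 among LysM-DKO macrophages, and with median-ratio scaling the WT values were 3.37 and 0.65. Scd2 was higher in WT by 2.07 (1.20 to 3.29) and Srebf1 by 1.56 (0.18 to 4.08), from 9 and 3 UMIs on normal diet. Mylip was lower on western diet in both genotypes, at -1.46 (-1.66 to -1.24) and -0.79 (-1.07 to -0.53). In LysM-DKO mice Nr1h3 was lower at -0.97 (-1.94 to -0.13), but at 0.03 in barcodes matching 1 class. In WT, 3 of 9 members were at least 2-fold higher and 1 lower (21% and 8.71% of all genes), and in LysM-DKO 1 of 8 was higher and 0 lower (7.11% and 6.46%).

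For Abca1 the ratio between diets was not alike in the 2 kinds of macrophage, a difference that was not tested. In WT foamy macrophages Abca1 was higher on western diet by 1.46 (0.99 to 2.02), although the normal diet side held only 13 barcodes. In the WT macrophages that were not foamy the ratio was -0.15 (-0.44 to 0.15). The barcodes behind that ratio also differed in marker RNA, by medians over barcodes. The macrophage markers were at 1058 CPM on western and 3134 CPM on normal diet. The smooth muscle markers were at 10762 and 3194 CPM in the same order. The part of these in the ratios of macrophages that were not foamy, and in the foamy shares below, was not tested. The share of macrophages that were foamy was 14.1% (7.74 to 23), 16.8% (12 to 22.6), 53.6% (50.3 to 56.8) and 48.9% (40.2 to 57.6), with exact binomial intervals. The foamy genes are read by UMI number, so these shares move with the depth of the barcodes. Abcg1 was higher on western diet in WT macrophages of both kinds, by 2.76 (1.82 to 4.18) and 2.69 (1.56 to 4.47). In LysM-DKO macrophages it was higher by 2.45 (1.78 to 3.27) in the foamy ones, and the ratio was 0.44 (-0.75 to 1.44) in the others. Whether the genotypes differ in this was not tested.

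Outside the macrophages, both exporters were also higher on western diet in WT mice, in every class. In B cells Abca1 was higher by 1.55 (1.30 to 1.80) and Abcg1 by 1.09 (0.74 to 1.44). In fibroblasts the ratios were 1.34 (1.12 to 1.58) and 3.0 (2.04 to 4.33), the latter from 93 against 8 UMIs. Endothelial cells gave 1.22 (1.01 to 1.42) and 2.04 (1.43 to 2.71), and smooth muscle 1.03 (0.92 to 1.15) and 1.84 (1.52 to 2.19). T cells gave 1.20 (0.63 to 1.75) and 0.98 (0.50 to 1.43). Members at least 2-fold higher numbered 2 of 8 in B cells (5.27% of all genes), 2 of 9 in endothelial cells (5.91%), 2 of 9 in fibroblasts (9.59%), 3 of 8 in T cells (11.4%) and 3 of 9 in smooth muscle (5.43%). The foamy macrophage markers, 6 genes such as Spp1, Fabp5 and Plin2 that were not used for the class rule, moved with these ratios: their summed level in fibroblasts was 1275, 1275, 14416 and 3631 CPM. In smooth muscle it was 1111, 1186, 3480 and 1483 CPM, and in endothelial cells 1492, 1356, 7413 and 2164 CPM. Their part in the wall ratios was not tested.

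In LysM-DKO mice the wall classes gave other ratios between diets. Abca1 was at 0.11 (-0.12 to 0.33) in endothelial cells, 0.63 (0.41 to 0.85) in fibroblasts and -0.23 (-0.37 to -0.09) in smooth muscle. Abcg1 was at -0.06 (-0.72 to 0.57), 0.60 (-0.50 to 1.76) and -1.74 (-2.15 to -1.33) in the same order. Smooth muscle Abcg1 was thus lower on western diet in LysM-DKO and higher in WT. Members at least 2-fold higher numbered 0 of 9 in each of the 3 classes, where 3.45%, 5.93% and 2.72% of all genes were.

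**Figure D3:**
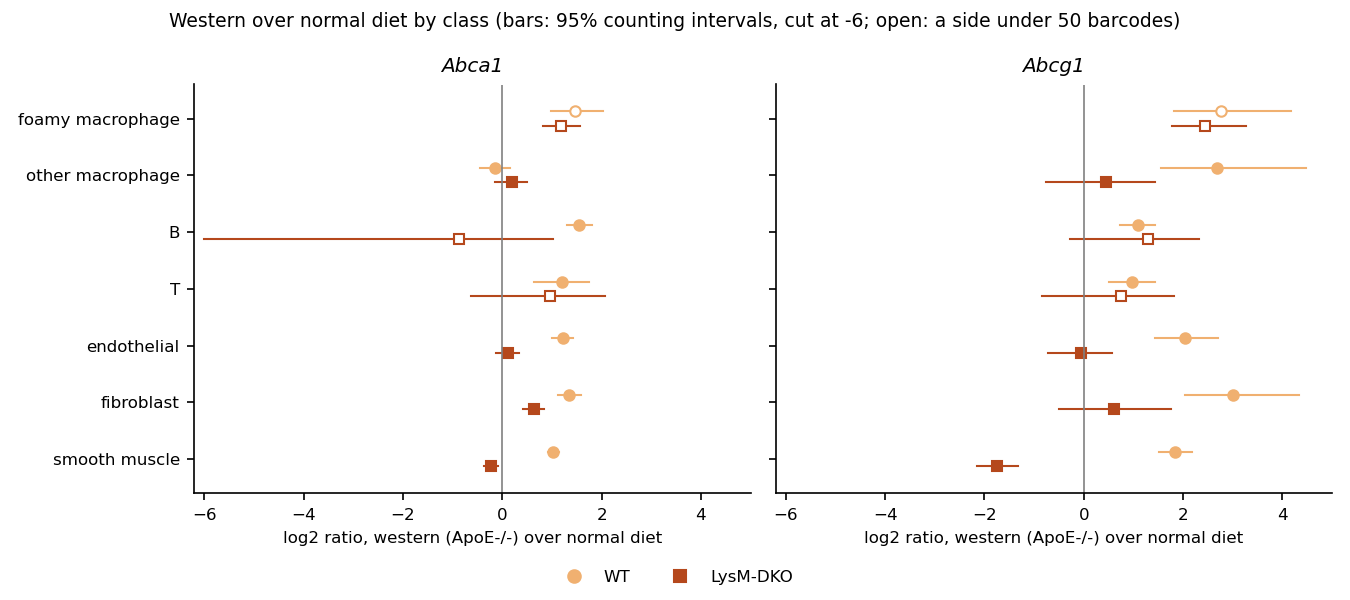
Log2 ratio of western (ApoE-/-) over normal diet for Abca1 and Abcg1, by class, in WT and LysM-DKO, with 95% counting intervals as bars (cut at -6) and open symbols where a side has under 50 barcodes. In WT the exporters lie above 0 in every class except Abca1 in macrophages that were not foamy, and in LysM-DKO the smooth muscle points lie below 0.

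On western diet both exporters were lower in the wall classes of LysM-DKO/ApoE-/- than in those of WT/ApoE-/-. In smooth muscle Abcg1 gave 95 UMIs against 486 in WT/ApoE-/-, a log2 ratio of -2.84 (-3.18 to -2.52), and Abca1 was at -1.39 (-1.49 to -1.30). In fibroblasts the ratios were -2.10 (-2.95 to -1.40) for Abcg1 and -0.52 (-0.70 to -0.34) for Abca1. In endothelial cells they were -1.26 (-1.88 to -0.69) and -0.86 (-1.08 to -0.65). With each barcode thinned to 2000 UMIs, 2.64% of smooth muscle barcodes in WT/ApoE-/- and 0.46% in LysM-DKO/ApoE-/- had an Abcg1 UMI (4.88% and 1.33% before thinning, with 4105 and 114 shallower barcodes left out). Nr1h2 in smooth muscle was at 0.13 (0.04 to 0.22), while the other 8 members had intervals below 0. The median member was at -0.49 and the median gene at -0.02 in smooth muscle, where 2 of 9 members and 9.52% of all genes were at least 2-fold lower. In endothelial cells 1 of 9 members was (3.68% of all genes), and in fibroblasts 1 of 9 (3.7%).

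Macrophage RNA in the wall barcodes moved in the same direction. The 7 macrophage markers summed to 31.2, 69.8, 41.1 and 11.9 CPM in smooth muscle, or 0.981%, 2.12%, 1.58% and 0.353% of their level in macrophages. Abcg1 in smooth muscle was at 15.7%, 15.4%, 4.29% and 0.761% of its macrophage level. In fibroblasts the markers were at 0.817%, 0.623%, 0.581% and 0.268% of the macrophage level, and Abcg1 at 11.2%, 8.31%, 7.23% and 2.09%. The Abcg1 percentages were above those of the markers in each of these 8 pairs of class and library. The 7 markers include none of the foamy markers, whose levels in the wall classes are given above. Whether macrophage RNA shared between droplets set the wall ratios was not tested. Of the endothelial barcodes, 81.1%, 71.7%, 84% and 87.8% matched more than 1 class of the rule. Among those matching 1 class, 63 in WT/ApoE-/- and 51 in LysM-DKO/ApoE-/-, the western diet ratios were -0.59 (-1.10 to -0.12) for Abca1 and -0.61 (-1.83 to 0.47) for Abcg1.

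On normal diet the exporter ratios in the wall were smaller in size. Abcg1 was at 0.74 (0.33 to 1.16) in smooth muscle and 0.83 (0.17 to 1.54) in endothelial cells, from 54 against 30 UMIs. Pltp was higher in LysM-DKO smooth muscle by 0.91 (0.66 to 1.15) and in endothelial cells by 0.62 (0.33 to 0.91), and lower in fibroblasts at -0.42 (-0.57 to -0.27). The macrophage markers moved the same way as Pltp, at 31.2 CPM in WT and 69.8 CPM in LysM-DKO smooth muscle, 21.3 and 60.5 CPM in endothelial cells, and 26 and 20.5 CPM in fibroblasts. Their part in these ratios was not tested. Endothelial Abca1, at 0.25 (0.03 to 0.47), and Abcg1 turned to -0.53 (-1.01 to -0.05) and -0.39 (-1.62 to 0.91) in barcodes matching 1 class, and endothelial Pltp to -0.22 with the class rule at 1000 UMIs. Of 9 members, 0 reached 2-fold in any of the 3 wall classes, beside 3.51% of all genes higher and 1.05% lower in endothelial cells, 2.71% and 1.57% in fibroblasts, and 6.48% and 0.975% in smooth muscle.

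The third comparison set foamy against other macrophages within a library, so that diet and genotype were the same on both sides. In the WT/ApoE-/- western diet library Abca1 was at 822 CPM in 503 foamy macrophages and 314 CPM in 436 others, a log2 ratio of 1.39 (1.24 to 1.54). Abcg1 was at 454 against 96.7 CPM, a ratio of 2.23 (1.97 to 2.5). Pltp was at 622 against 187 CPM (1.73, 1.54 to 1.93), and Nr1h3 at 20.4 against 8.79 CPM (1.17, 0.29 to 2.26). These 4 were the members at least 2-fold higher of 9, and 0 were lower, beside 5.7% and 12.8% of all genes. Mylip was at 0.39 (0.17 to 0.63), which turned to -0.10 with the class rule at 1000 UMIs, and Nr1h2, Lpcat3, Srebf1 and Scd2 had intervals that included 0. With that class rule Abca1 was at 0.74 and Abcg1 at 1.04. The 2 sides also differed in marker RNA, by medians over barcodes: the smooth muscle markers were at 1367 CPM in foamy and 10762 CPM in other macrophages, and the fibroblast markers at 415 and 2275 CPM. The 7 macrophage markers were at 2731 CPM in foamy and 1058 CPM in other macrophages. The part of these in the foamy over other ratios was not tested.

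In the LysM-DKO/ApoE-/- library, with 66 foamy and 69 other macrophages, Abcg1 was at 369 against 46.1 CPM, a ratio of 2.94 (2.12 to 4.03). Abca1 was at 0.52 (0.20 to 0.85), Pltp at 0.76 (0.41 to 1.12) and Mylip at -0.98 (-1.45 to -0.51). Of the 6 members with 20 UMIs, 2 were at least 2-fold higher and 0 lower (11.2% and 11% of all genes). On normal diet the exporter order was not the same. In LysM-DKO, Abca1 was lower in the 35 foamy macrophages than in the 173 others, at -0.48 (-0.86 to -0.13). Nr1h3 was higher there by 1.42 (0.52 to 2.30), as the 1 member of 8 past 2-fold (4.62% of all genes higher and 7.43% lower). In WT the 13 foamy barcodes held 33 UMIs of Abca1 and 7 of Abcg1, and 0 of the 3 members with 20 UMIs were at least 2-fold higher (10.1%) while 2, Mylip at -1.72 and Pltp at -1.14, were lower (12.3%).

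Foamy macrophages were deeper than the others on western diet, with medians of 4103 against 1926 UMIs in WT/ApoE-/- and 5729 against 3077 in LysM-DKO/ApoE-/-. At 2000 UMIs per barcode, an Abcg1 UMI was found in 47.3% (42 to 52.7) of foamy and 14.4% (9.9 to 19.9) of other macrophages in WT/ApoE-/-. In LysM-DKO/ApoE-/- the shares were 43.8% (31.4 to 56.7) and 8.62% (2.86 to 19). Before thinning they were 61%, 20%, 71.2% and 8.7%, and 148, 227, 2 and 11 barcodes were too shallow to thin. In fibroblasts, a class with little Abcg1, the thinned shares were 4.17% and 0.361%. An Abca1 UMI was found in 70.4% and 47.8% of foamy and other macrophages in WT/ApoE-/-, and in 64.1% and 60.3% in LysM-DKO/ApoE-/-.

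**Figure D4:**
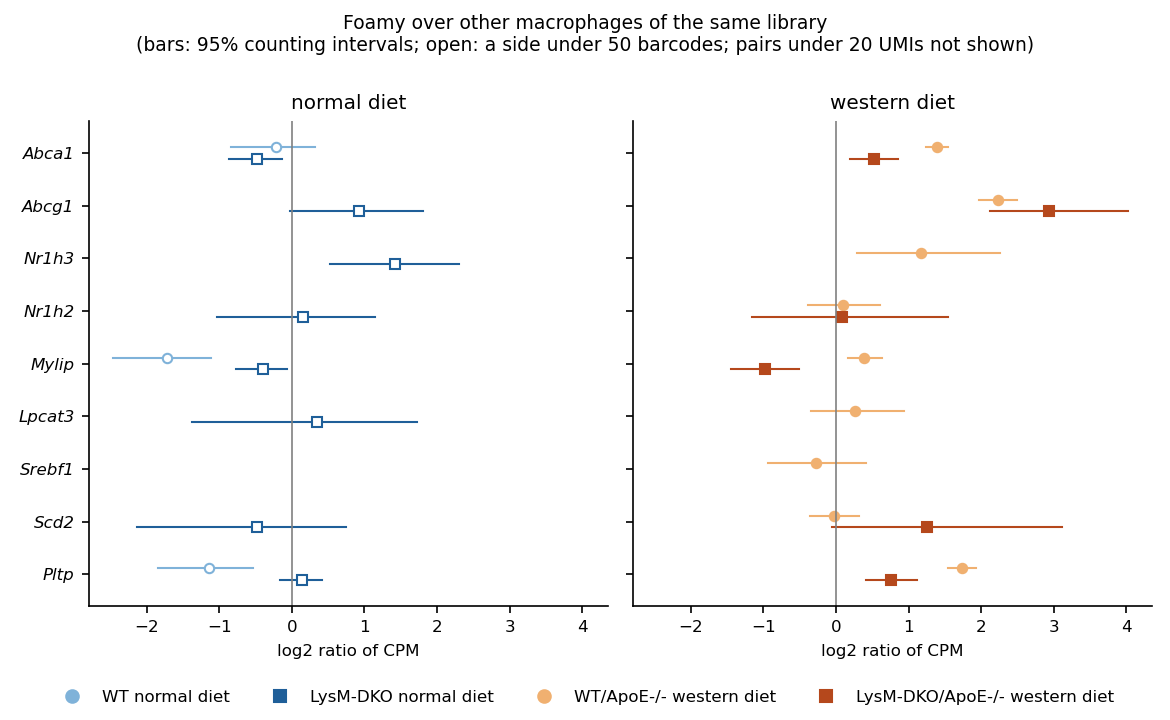
Log2 ratio of foamy over other macrophages for the 9 genes within each library, with 95% counting intervals as bars and open symbols where a side has under 50 barcodes. Abcg1 lies above 0 in both western diet libraries at 2.23 and 2.94, Abca1 and Pltp lie above 0 there by less, and Abca1 lies below 0 in the LysM-DKO normal diet library.

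Since a threshold on UMIs depends on depth, macrophages of at least 2000 UMIs were also sorted by the number of Gpnmb, Trem2 and Mmp12 UMIs among 2000 drawn from each. This view was added after the data were seen. In WT/ApoE-/- the groups of 0, 1 to 3, 4 to 9 and 10 or more such UMIs held 183, 231, 90 and 60 barcodes. Abca1 was at 328, 664, 888 and 1227 CPM across them, and Abcg1 at 100, 313, 557 and 690 CPM. Both exporters were thus higher at each step in this library. On normal diet few macrophages held such UMIs, and the point values of Abca1 had the opposite order. They were 404, 289 and 231 CPM in LysM-DKO (154, 28 and 4 barcodes at 0, 1 to 3 and 4 to 9 UMIs). In WT they were 346 and 304 CPM (68 and 13 barcodes). The intervals of the groups overlapped in both normal diet libraries. In WT/ApoE-/- Pltp was at 197, 324, 722 and 1230 CPM. Nr1h2 was at 34, 43.5, 44.2 and 46.2 CPM there, and Mylip at 169, 205, 248 and 200 CPM. Nr1h3 was at 8.5, 9.86 and 7.69 CPM in the first 3 groups and at 54.8 CPM in the last. The highest LXR alpha level of the WT/ApoE-/- library thus lay in the group with the most such UMIs. In LysM-DKO on normal diet Nr1h3 was at 31.6 CPM at 0 and 102 CPM at 1 to 3 such UMIs. It gave 0 UMIs in the 4 barcodes at 4 to 9. In LysM-DKO/ApoE-/-, with 51, 43, 16 and 12 barcodes, Abca1 was at 393, 586, 713 and 1074 CPM and Abcg1 at 78.5, 273, 375 and 642 CPM. The smooth muscle gene Acta2 went the other way in WT/ApoE-/-, at 6539, 4129, 1303 and 423 CPM, and its part in the order was not tested.

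**Figure D5:**
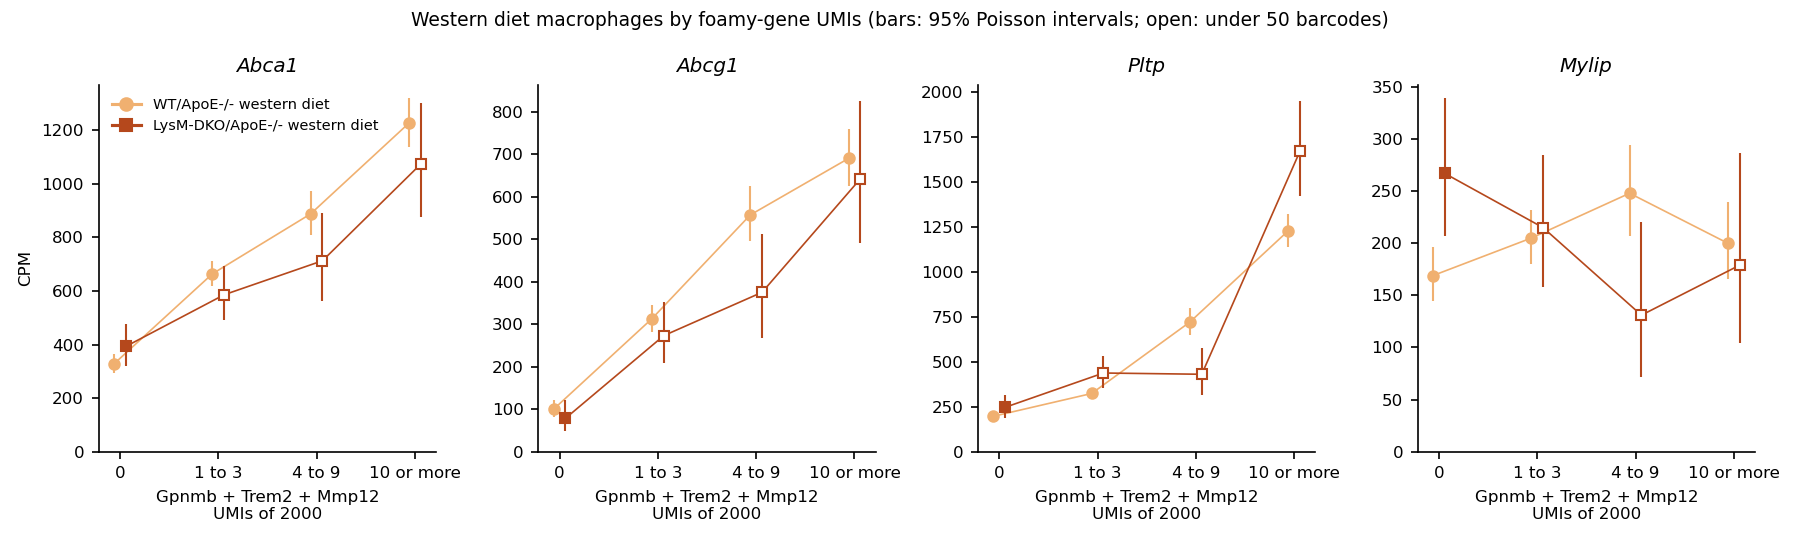
Level (CPM) of Abca1, Abcg1, Pltp and Mylip in western diet macrophages sorted by Gpnmb, Trem2 and Mmp12 UMIs among 2000, with 95% Poisson intervals as bars and open symbols under 50 barcodes. In WT/ApoE-/- Abca1 goes from 328 to 1227 CPM and Abcg1 from 100 to 690 CPM, and both exporters also go up in LysM-DKO/ApoE-/-, while Mylip does not follow the same order in the 2 libraries.

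Other genes of the pathway were read from lists, whose counts stand beside the shares of all genes given above for the same comparison. Of 16 other LXR targets, 11 had 20 UMIs in foamy and other macrophages of the WT/ApoE-/- western diet library, and 4 were at least 2-fold higher and 1 lower (5.7% and 12.8% of all genes), with a median of 0.36 beside -0.10 for all genes. Cd5l, a secreted macrophage survival protein, gave 258 UMIs against 0, at least 45.9-fold higher, and Apoc1, an apolipoprotein, gave 29 against 0, at least 5.18-fold higher. The lipoprotein lipase gene Lpl was higher by 2.66 (2.40 to 2.94) and the growth factor gene Vegfa was at -1.96 (-2.87 to -1.13). Among other sterol transport genes, 4 of 14 were at least 2-fold higher and 2 lower, with a median of 0.79. They included the sterol carrier Gramd1b (2.21), the cholesteryl ester hydrolase Nceh1 (1.82) and the lysosomal acid lipase Lipa (1.79), while Abca5 was at -1.24. The lipogenic genes of Srebf1 had 0 of 10 at least 2-fold higher and 3 lower (median -0.61), with malic enzyme Me1 at -1.55 (-2.21 to -0.94), Elovl5 at -1.14, Fads2 at -1.09 and Insig2 at -0.72. The receptor partners and oxysterol enzymes had 0 of 9 past 2-fold, with Rxrb at 0.75, Ch25h at -0.65, Nrip1 at -0.63 and Ncor1 at -0.38.

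In the LysM-DKO/ApoE-/- library the same lists gave 5 higher and 2 lower of 8 LXR targets, where 11.2% and 11% of all genes were (median 1.66 beside 0.00 for all genes). Apoc1 was at least 8.89-fold higher and Cd5l at least 7.37-fold higher in foamy macrophages, Lpl was higher by 2.80 and the transglutaminase gene Tgm2 by 1.82. Sterol transport genes gave 5 higher and 1 lower of 8 (median 1.27), with the cholesterol esterifying enzyme Soat1 at 1.66, Nceh1 at 1.5, Lipa at 1.48 and Abca9 at -2.24. Of 4 lipogenic genes 1 was higher and 1 lower, Scd1 at 1.44 (-0.15 to 4.03) and Insig1 at -1.68, with Fads1 at -0.49 and Insig2 at -0.16. Of 6 partners and enzymes 0 were higher and 1 lower, with Ncoa1 at -1.04, Ncor1 at -0.81, Med1 at -0.66 and Nrip1 at -0.41.

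Between genotypes the background was 6.55% of all genes at least 2-fold higher and 2.39% lower for the normal diet pair, against 4.1% and 9.1% for the western diet pair. On normal diet Ch25h, which makes the LXR ligand 25-hydroxycholesterol, was at 98.1 CPM in LysM-DKO macrophages and 360 CPM in WT, a ratio of -1.87 (-2.24 to -1.52). It was the 1 gene of 9 partners and enzymes past 2-fold. Of 9 LXR targets 2 were at least 2-fold higher, the chemokine receptor gene Ccr7 (2.43, 0.99 to 4.97) and Cd38 (1.02, 0.24 to 1.97). Ccr7 was also among the dendritic cell markers fixed beforehand. In foamy macrophages it gave 24 UMIs in LysM-DKO and 0 in WT. The median of the 35 foamy barcodes in LysM-DKO was 0 UMIs of the dendritic markers. The part of dendritic cells in the Ccr7 ratio was not tested. Scd1 was higher by 2.39 (1.11 to 4.48) as the 1 of 10 lipogenic genes, and 0 of 11 sterol transport genes passed 2-fold, with Soat1 at 0.88. On western diet 3 of 11 LXR targets were at least 2-fold higher and 1 lower: Apoc1 at 3.31 (2.64 to 4.03), Cd38 at 1.92 (1.44 to 2.39), Ccr7 at 1.17 (-0.17 to 2.29) and Lpl at -1.09 (-1.36 to -0.84). The lipogenic list had 0 of 10 higher and 1 lower, with Fasn at -1.18 (-2.98 to -0.02) and Scd1 at -0.87 (-1.62 to -0.25), and its median was -0.27 beside -0.05. Sterol transport had 0 of 14 past 2-fold, with Abca9 at 0.99 and Nceh1 at -0.79.

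Between diets Ch25h was again the gene furthest from 0 among the partners and enzymes, at -2.85 (-3.16 to -2.55) in macrophages of WT mice and -1.18 (-1.83 to -0.60) in those of LysM-DKO mice. Lpl was higher on western diet by 3.21 (2.63 to 3.94) and 1.98 (1.53 to 2.47). Insig1, which holds the SREBP proteins back in the endoplasmic reticulum, was at -2.52 (-2.88 to -2.15) and -1.64 (-2.18 to -1.15). Of 15 sterol transport genes in WT, 3 were at least 2-fold higher and 2 lower, beside 21% and 8.71% of all genes. In LysM-DKO 1 of 12 was higher and 0 lower, beside 7.11% and 6.46%, so the list's shares of higher genes were near those of all genes in both. The LXR target Apoe, deleted in the western diet groups, was at -9.68 and -9.20.

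The members also differed in which genes shared their pattern over the 24 pairs of class and library with at least 50 barcodes. Likeness was Pearson's r of log2 CPM with 10 added, over 3686 genes, and the pairs share libraries and depth. Abca1 was most like Myo5a (0.94), Lgmn (0.93), Sirpa, Rragc and Clta (0.91). Abcg1 was most like Ptk2b and N4bp1 (0.92), Ncf4 and Sema4d (0.91) and Ppp1ca (0.90). Pltp was most like Snx10 and Cxcl16 (0.96), Lgals3bp and Metrnl (0.95) and Tnfaip2 (0.94). Nr1h3 was most like Vat1 (0.88), Lgals3bp (0.87), Hexa, Atox1 and Rnh1 (0.84). Scd2 was most like the collagen genes Col1a2 (0.91), Col1a1 and Col6a1 (0.90), then Col5a2 and Mrc2 (0.89). Among the members themselves, r was 0.83 for Abca1 with Pltp, 0.65 for Abca1 with Abcg1, 0.79 for Nr1h3 with Pltp, 0.77 for Srebf1 with Scd2 and -0.85 for Nr1h2 with Pltp. For Nr1h3, r was also 0.64 with Abca1, 0.40 with Mylip and 0.22 with Abcg1. Among the members LXR alpha was thus most like Pltp, and the r of LXR beta was lowest with Pltp. The spread of LXR beta was small, at most 1.77-fold over classes within a library, where Pltp spanned at least 39.7-fold.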

How the data were processed

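Single-cell RNA was measured in 4 mouse aorta libraries, 1 per group. The deposited matrices hold counts (UMIs per gene and barcode), made with Cell Ranger 6.0.1 for the normal diet and 6.1.2 for the western diet libraries per the file headers. The submitters' processing notes name mm10, Cell Ranger 6.1.2 and Seurat 4.1.0. Total kept UMIs were 40746006, 37789023, 53423800 and 56888546.

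Classes were assigned in this order from raw UMIs: macrophage as above, B (Cd79a, Ms4a1, at least 2), T (Cd3d, Cd3e, Trac, 2), endothelial (Pecam1, Cdh5, 2), fibroblast (Pdgfra, Serpinf1, 3) and smooth muscle (Myh11, Cnn1, 3). The classes rebuild cell types and are not the study's own. Doublets were kept, and removing those scored highest by scrublet was an alternative. Counts were summed per class and library, with exact Poisson intervals for levels, exact conditional binomial intervals for ratios and exact binomial intervals for shares. A count of 0 was given the limit of 3 UMIs. Called means at least 2-fold among genes with at least 20 UMIs over both sums; no test was run. The members, lists and class rule were chosen with earlier results of these data known. Named genes were all members, the 4 genes per list with the largest absolute ratio, and the 5 genes most like Abca1, Abcg1, Nr1h3, Scd2 and Pltp. The interval code was tested on simulated data. Positions came from GENCODE M21, which matched 32235 features. Intervals used scipy 1.17.1 and the scores scanpy 1.11.5, under Python 3.11.15. One further gene list is not reported here.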

Additional observations from a re-analysis of the deposited data

Results flagged for a closer look

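These results have counting intervals on opposite sides of 0 in groups under the same contrast; with 1 library per group, none of the differences was tested. On the log2 scale, LysM-DKO over WT gave -0.86 for Abca1 in endothelial cells on western diet and 0.25 on normal diet. For Abcg1 in endothelial cells it was -1.26 and 0.83. In barcodes matching 1 class the normal diet values were -0.53 for Abca1 and -0.39 for Abcg1, the direction of western diet, and endothelial barcodes mostly matched more than 1 class. In smooth muscle it was -2.84 and 0.74 for Abcg1, -0.49 and 0.61 for Nr1h3, and -0.94 and 0.91 for Pltp. In fibroblasts it was 0.35 and -0.42 for Pltp. In macrophages that were not foamy it was 1.06 and -0.62 for Mylip.

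The log2 ratio of foamy over other macrophages was 0.39 for Mylip in the WT/ApoE-/- western diet library, -0.98 in the LysM-DKO/ApoE-/- western diet library, -0.40 in the LysM-DKO normal diet library and -1.72 in the WT normal diet library. For Pltp it was 1.73 in the WT/ApoE-/- and 0.76 in the LysM-DKO/ApoE-/- library, against -1.14 in the WT normal diet library, whose foamy side held 13 barcodes. For Abca1 it was 1.39 in the WT/ApoE-/- and 0.52 in the LysM-DKO/ApoE-/- library, against -0.48 in the LysM-DKO normal diet library.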

How the results depend on the processing

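No paired analysis was possible because each group was 1 library. Across the alternatives, 1176 of 1296 member ratios stayed within their counting interval, 104 moved beyond it and 16 turned direction. Of 2160 levels, 1865 stayed and 295 moved. All 76 list medians stayed, as did 20 of 28 background percentages, with 8 moved. Median-ratio scaling was not run for levels. The cause of each change below was not tested.

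With barcodes matching 1 class only, the LysM-DKO over WT ratio in normal diet macrophages was 0.77 for Abca1 and 0.32 for Mylip, and in western diet macrophages -0.41 for Abca1 (-0.15 in those not foamy). The western over normal diet ratio was 1.56 for Abca1 and 5.74 for Abcg1 in WT, and 0.38 for Abca1, 3.78 for Abcg1, 0.03 for Nr1h3 and -0.01 for Pltp in LysM-DKO. Foamy over other in WT/ApoE-/- was 1.01 for Abca1 and 1.81 for Abcg1. LysM-DKO over WT was -0.53 for Abca1 and -0.39 for Abcg1 in normal diet endothelial cells, 0.09 for Scd2 in normal diet fibroblasts, and 0.70 for Lpcat3 and 0.16 for Scd2 in western diet endothelial cells.

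With the class rule at 1000 UMIs, LysM-DKO over WT was 0.46 for Abca1 in normal diet macrophages, -0.01 for Pltp in western diet macrophages, -0.17 for Abca1 in those not foamy, -0.22 for Pltp in normal diet and 0.11 for Scd2 in western diet endothelial cells. Western over normal diet was 1.41 for Abca1 in WT. Foamy over other was 0.74 for Abca1, 1.04 for Abcg1 and -0.10 for Mylip in WT/ApoE-/-, and 1.79 for Abcg1 in LysM-DKO/ApoE-/-.

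With at least 10 C1q UMIs, western diet macrophages gave -0.35 for Abca1, -0.59 for Abcg1 and -0.08 for Pltp. Western over normal diet in WT was 1.28 for Abca1, and foamy over other in WT/ApoE-/- was 1.03 for Abca1 and 1.89 for Abcg1. At a limit of 5% mitochondrial UMIs the western diet genotype ratios were -0.31 for Abca1, -0.68 for Abcg1 and -0.14 for Pltp. With equal weight per barcode, Abca1 was 0.08 between genotypes on western diet and 0.65 between diets in WT, and foamy over other in WT/ApoE-/- was 1.14 for Abca1 and 1.75 for Abcg1. Median-ratio scaling gave 0.65 for Abca1 between diets in WT. Foamy over other for Abcg1 was 1.95 at 500 UMIs per barcode in WT/ApoE-/- and 1.81 at 4 foamy UMIs in LysM-DKO/ApoE-/-. The western diet genotype ratio of Abcg1 in macrophages ranged from -0.68 to -0.25 and kept its direction over 10 alternatives.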
